A study of Mus musculus with 15 samples.

Results

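Kupffer cells are the macrophages that live in the sinusoids of the liver, and 10 genes that mark them in mice were followed here across 5 groups of liver samples. The genes are Clec4f, Timd4, Vsig4, Marco, Cd5l, Adgre1, Mrc1, Csf1r, C1qa and Folr2, and each was found by its symbol among the 26264 genes of the deposited count table. RNA sequencing of polyadenylated RNA was done on whole liver, so the levels describe the tissue and not sorted cells. Mice with fatty liver disease (MASLD) brought on by a high-fat diet received either resmetirom, a drug that activates the beta form of the thyroid hormone receptor, or Gc337, an antisense oligonucleotide against the kinase gene Stk25. The labels name 5 groups of 3 libraries: HFD-337 (replicates 23, 26 and 27), HFD-338 (replicates 17, 18 and 19), HFD-Res (replicates 29, 30 and 34), HFD-NS (replicates 12, 13 and 16) and SD-NS (replicates 6, 7 and 8). HFD stands for the high-fat diet that HFD-337, HFD-338, HFD-Res and HFD-NS share, and Res for resmetirom, and the number 337 is that of Gc337. The labels used here do not spell out SD or NS, do not say what 338 is, and give no strain, sex, age, dose or duration. They do not state that every library is a separate animal either, so p-values measure only the spread between these samples, which may be technical.

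Resident Kupffer cells descend mostly from embryonic precursors and renew themselves in the liver, where signals from hepatocytes, stellate cells and sinusoidal endothelium keep up their identity. They clear bacteria, aged red blood cells, lipoproteins and dying cells from portal blood. When resident cells are lost, monocytes from the blood enter the niche, first switch on general macrophage genes and acquire resident markers with a delay, Timd4 being among the slowest. In steatotic liver disease a part of the macrophages takes on a lipid-associated form. Of the 10 genes, Clec4f is largely restricted to Kupffer cells in mice and Timd4 marks the long-lived resident cells, whereas Adgre1, Csf1r and C1qa are also on in monocyte-derived macrophages and Mrc1 is also on in liver sinusoidal endothelium.

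The sequences before the transcription starts of Clec4f, Vsig4, Cd5l and Mrc1 are shown as examples of stretches that hold one of the motifs below, the other, or both. They were taken from RefSeq promoters of build GRCm38.p6, whereas gene positions and counts below are in build mm39. Of the 10 genes, 7 were used. Adgre1 and C1qa were not matched. Csf1r was left out beforehand by its chromosome, so whether it has a match was not checked. Each line runs 5′ to 3′ on the gene's strand over the 250 bases before the start, and lies at chr6:83656117-83656366 (minus strand) for Clec4f, chrX:96293439-96293688 (minus strand) for Vsig4, chr3:87357631-87357880 (plus strand) for Cd5l and chr2:14229164-14229413 (plus strand) for Mrc1. Capitals mark the core letters bound by the myeloid factor PU.1 (GAGGAA, on the other strand TTCCTC) and the core of the MAF half-site (TGCTGA, on the other strand TCAGCA).
Clec4f: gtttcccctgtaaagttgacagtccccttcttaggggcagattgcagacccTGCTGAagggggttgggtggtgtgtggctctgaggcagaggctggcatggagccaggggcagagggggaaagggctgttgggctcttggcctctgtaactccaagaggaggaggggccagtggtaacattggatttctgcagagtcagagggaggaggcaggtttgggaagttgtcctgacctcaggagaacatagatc
Vsig4: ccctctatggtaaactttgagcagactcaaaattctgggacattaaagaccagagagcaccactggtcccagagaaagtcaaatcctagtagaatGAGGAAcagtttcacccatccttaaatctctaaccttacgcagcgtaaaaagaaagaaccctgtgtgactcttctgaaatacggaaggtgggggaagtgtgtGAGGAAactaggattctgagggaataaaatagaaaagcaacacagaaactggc
Cd5l: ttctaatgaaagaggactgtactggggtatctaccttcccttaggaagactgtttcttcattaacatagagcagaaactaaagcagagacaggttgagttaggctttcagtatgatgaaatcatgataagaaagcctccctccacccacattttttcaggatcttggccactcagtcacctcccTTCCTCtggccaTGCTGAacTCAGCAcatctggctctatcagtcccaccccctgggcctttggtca
Mrc1: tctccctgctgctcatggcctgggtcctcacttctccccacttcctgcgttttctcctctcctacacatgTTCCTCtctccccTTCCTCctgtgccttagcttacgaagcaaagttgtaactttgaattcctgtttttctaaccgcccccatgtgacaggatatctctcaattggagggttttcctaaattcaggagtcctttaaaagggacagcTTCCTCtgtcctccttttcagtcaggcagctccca
The 7 genes used have 8 promoters, since Folr2 has 2. The PU.1 letters stood in 4 of these 8, against 23.3% of all 32851 promoters of this length, and the MAF letters in 5 of 8, against 16.1%. No chromosome was left out of these shares over all promoters. The chromosome of Csf1r was left out of the counts of 8, so counts and shares do not cover the same chromosomes. The Mrc1 stretch held 3 copies of the PU.1 letters and none of the MAF letters, the Clec4f stretch the reverse with 1 copy of the MAF letters, and the Cd5l stretch held both. A match of letters is a description of the sequence and not a bound site.

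Libraries held 3873903 to 9797743 counts. Stk25, the target of the antisense agent, was at 19.1, 18.8 and 14.6 CPM (counts scaled to a common library size) in HFD-337, at 22.0, 21.9 and 20.5 CPM in HFD-338, and between 37.7 and 53.3 CPM in the other 9 libraries, so both numbered groups had lower Stk25 than any other library. All CPM values are scaled by TMM, edgeR's correction for library composition, and values after ± are SDs over 3 libraries. HFD-338 replicate 18 stood apart. Its 8 neutrophil markers summed to 134.6 CPM, against 7.75 and 5.24 CPM in replicates 17 and 19 and 2.07 to 14.8 CPM in the libraries of HFD-337, HFD-Res and HFD-NS, with S100a8 at 66.7 CPM and S100a9 at 55.9 CPM. The defining neutrophil gene Ly6g was at 0.618 CPM in this library and at 0 CPM in replicates 17 and 19. The counts of called genes and the tests of genes named for HFD-338 against HFD-NS are therefore given with and without replicate 18, whereas sums and group means include it, and the part of these cells in the results was not tested.

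Per exon length, Cd5l, C1qa and Clec4f were the most abundant of the 10 genes. Averaged over the 5 groups, they reached 48.6, 43.2 and 37.1 TPM, a unit that corrects for exon length and depth, followed by Vsig4 (21.04 TPM), Mrc1 (14.97 TPM), Csf1r (11.7 TPM), Adgre1 (8.43 TPM), Folr2 (5.99 TPM), Marco (5.34 TPM) and Timd4 (2.52 TPM). All 10 were present in every library and all 10 passed the filter on low counts. Timd4 was the scarcest, with 4, 4 and 3 counts in the HFD-337 libraries and 3 counts in HFD-338 replicate 19. The exons of none of the 10 genes overlap those of another gene.

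The marker set as a whole was lowest in HFD-337. The CPM of the 10 genes summed to 144, 67.9 and 100.5 in HFD-337, to 312, 509 and 171 in HFD-338, to 279, 236 and 203 in HFD-Res, to 206, 260 and 212 in HFD-NS and to 241, 148 and 259 in SD-NS. All 3 HFD-337 sums were below every sum of the other 4 groups, while HFD-338 held the highest sum of all and also a low one. By group mean, HFD-337 was the lowest group for 9 of the 10 genes. The highest group was HFD-338 for 5 genes, HFD-Res for 3 and SD-NS for 2. Of the 40 pairs of groups that stood next to each other in these orders, only 3 differed beyond their spread by edgeR's test, namely HFD-338 and HFD-NS for Adgre1 and for C1qa, and HFD-338 and HFD-337 for Mrc1. In bulk tissue, fewer Kupffer cells and less of these RNAs per cell cannot be told apart.

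**Figure D1:**
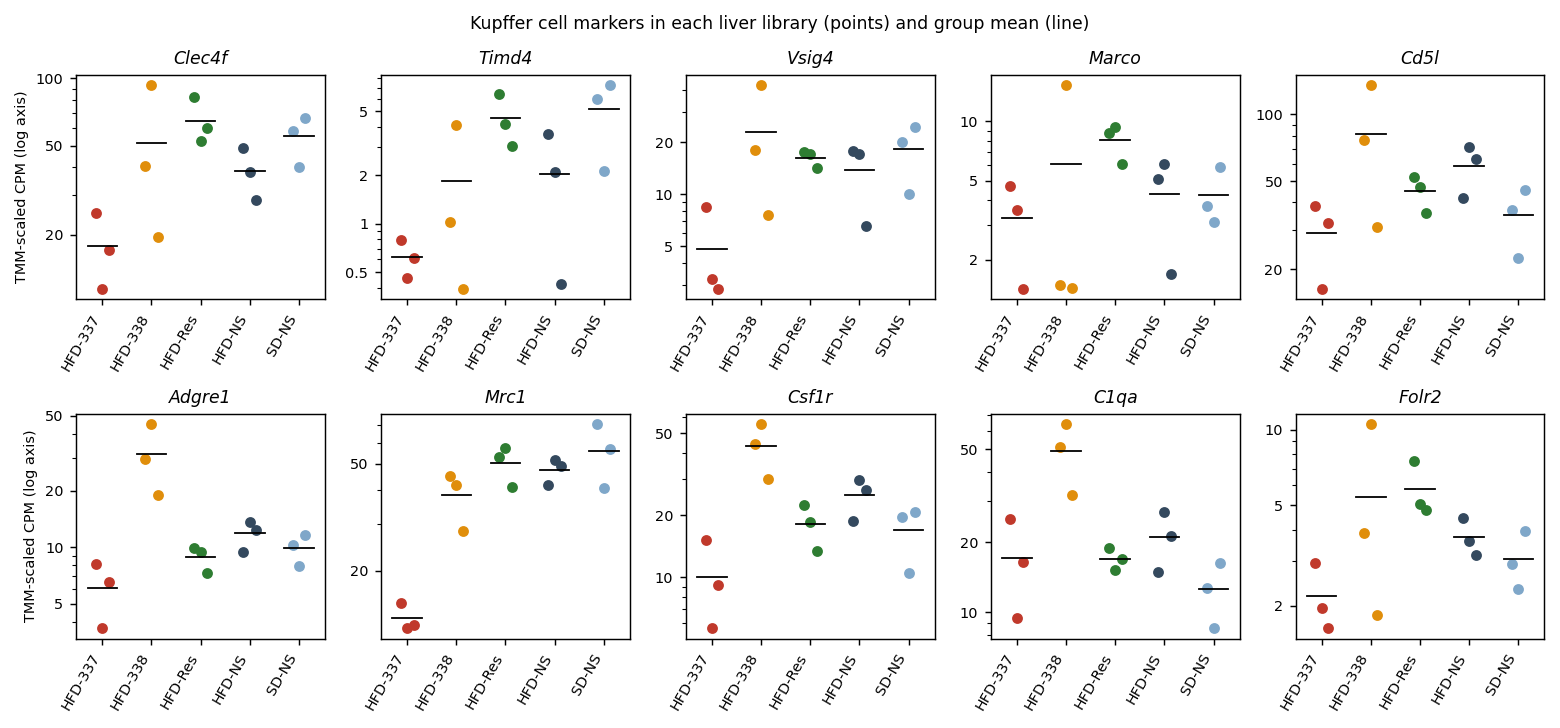
TMM-scaled CPM of the 10 markers on log axes, 1 panel per gene, with a point for each liver library and a line at the mean of each group of 3. HFD-337 has the lowest group mean in 9 panels, and in HFD-338 the points spread widest, from 19.5 to 93.8 CPM for Clec4f and from 1.44 to 15.3 CPM for Marco.

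Over all 5 groups at once, 5 of the 10 markers differed by edgeR's quasi-likelihood F test, against 80.9% of all 13189 genes tested. These were Mrc1 (adjusted p = 1.03e-05), Adgre1 (4.14e-05), C1qa (0.00155), Csf1r (0.00161) and Timd4 (0.0384). The other members had adjusted p = 0.0582 for Clec4f, 0.0776 for Folr2, 0.0894 for Cd5l, 0.101 for Vsig4 and 0.624 for Marco. A DESeq2 likelihood ratio test called 9 of the 10. Its share over all genes was not counted, so this number has no background beside it.

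In HFD-337 against HFD-NS, 3 markers fell and none rose. They were the mannose receptor gene Mrc1, the growth factor receptor gene Csf1r and Adgre1, which encodes F4/80, the classical surface antigen of mouse macrophages. The share of 3 in 10 lies near the background, since 22.8% of all genes tested were called lower in this comparison, 24.4% higher and 47.2% in either direction. All 10 log2 fold changes were negative, from -1.84 to -0.35, with a median of -1.09 against 0.03 over all genes. The HFD-337 values lay wholly below those of HFD-NS for 6 members, against 25.7% of all genes.

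Mrc1 (mm39 chromosome 2, 14234225 to 14336834), a lectin receptor that takes up glycoproteins, was at 15.2, 12.2 and 12.6 CPM in HFD-337 and at 41.7, 51.7 and 49.0 CPM in HFD-NS. The 2 groups did not overlap and HFD-337 stood at 28.1% of the HFD-NS mean. The log2 fold change was -1.84 (SE 0.221, adjusted p = 9.8e-06), and the call held under all 12 alternatives, in which the log2 fold change ran from -1.94 to -1.76. Mrc1 is also a gene of sinusoidal endothelium, and the markers of these cells moved with it. All 14 tested of 15 sinusoidal endothelial markers fell in HFD-337 against HFD-NS, with a median log2 fold change of -1.75, and their summed level was 121 to 148 CPM in HFD-337 against 359 to 438 CPM in HFD-NS. Lyve1, the hyaluronan receptor of these cells, was at 3.72 ± 0.846 CPM in HFD-337 and at 21.7 ± 2.79 CPM in HFD-NS (log2 fold change -2.53, adjusted p = 9.05e-08), and no marker of the list was at 0 in any group. The part of the endothelium in the fall of Mrc1 was not tested.

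Csf1r encodes the receptor for the growth factors CSF1 and IL-34, on which macrophages depend for survival, and lies on chromosome 18 (61238644 to 61264211 in mm39). It was at 15.2, 5.65 and 9.13 CPM in HFD-337 and at 18.7, 29.6 and 26.6 CPM in HFD-NS, again without overlap. Its log2 fold change was -1.38 (SE 0.381, adjusted p = 0.0106), and the call held under all 12 alternatives (adjusted p from 0.000235 to 0.049). Adgre1 (chromosome 17, 57665686 to 57790529) was at 8.07, 3.69 and 6.49 CPM in HFD-337 and at 9.46, 13.7 and 12.3 CPM in HFD-NS. These groups did not overlap either, but the gap between the highest HFD-337 and the lowest HFD-NS library was small. The log2 fold change of Adgre1 was -1.02 (SE 0.345, adjusted p = 0.0253), with a range of adjusted p over the alternatives from 0.0067 to 0.137. The call was lost without HFD-337 replicate 26 (log2 fold change -0.70, adjusted p = 0.137), and also without HFD-NS replicate 13 or 16.

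The more Kupffer-restricted genes were lower on average in HFD-337 than in HFD-NS but did not pass the test over all genes. Clec4f, a lectin gene (chromosome 6, 83621524 to 83633098), was at 25.0, 11.4 and 17.0 CPM in HFD-337 and at 48.9, 38.1 and 28.7 CPM in HFD-NS. The groups did not overlap, and the log2 fold change was -1.15 (SE 0.539, adjusted p = 0.105). It was called when only these 2 groups were fitted (adjusted p = 0.026) and on recomputed TPM (adjusted p = 0.047). Timd4 (chromosome 11, 46701626 to 46735160) encodes a receptor for phosphatidylserine on dying cells, and was at 0.788, 0.461 and 0.609 CPM in HFD-337 and at 3.62, 2.11 and 0.422 CPM in HFD-NS. The lowest library of all 6 was HFD-NS replicate 16, so the groups overlapped, with a log2 fold change of -1.74 (SE 0.981 and adjusted p = 0.165). Vsig4, the gene of the complement receptor CRIg that catches opsonized bacteria (chromosome X, 95290807 to 95337044), was at 8.47, 3.23 and 2.84 CPM in HFD-337 and at 17.9, 17.0 and 6.54 CPM in HFD-NS. It overlapped through the same HFD-NS library and had a log2 fold change of -1.55 (SE 0.738 and adjusted p = 0.109, and 0.0418 by DESeq2).

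The genes of secreted proteins and scavengers and Folr2 did not pass edgeR's test either. Cd5l, which encodes a secreted scavenger protein induced by liver X receptors (chromosome 3, 87265188 to 87278381), was at 38.6, 16.3 and 32.3 CPM in HFD-337 and at 41.7, 70.9 and 62.6 CPM in HFD-NS. The groups did not overlap, but the log2 fold change of -1.04 (SE 0.515) had an adjusted p of 0.123 (0.0341 by limma-voom). Folr2, the folate receptor beta gene (chromosome 7, 101489195 to 101506397), was at 2.95, 1.96 and 1.62 CPM in HFD-337 and at 4.44, 3.601 and 3.16 CPM in HFD-NS (log2 fold change -0.78 with SE 0.51, adjusted p = 0.222). The bacterial scavenger receptor gene Marco (chromosome 1, 120402267 to 120432753) had overlapping values of 4.73, 3.57 and 1.42 CPM in HFD-337 and 5.14, 6.08 and 1.69 CPM in HFD-NS. C1qa, the gene of the A chain of complement C1q (chromosome 4, 136623227 to 136626155), overlapped as well, at 25.2, 9.45 and 16.4 CPM in HFD-337 and 14.9, 26.9 and 21.2 CPM in HFD-NS. Within HFD-337, replicate 23 was the highest library for all 10 genes.

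**Figure D2:**
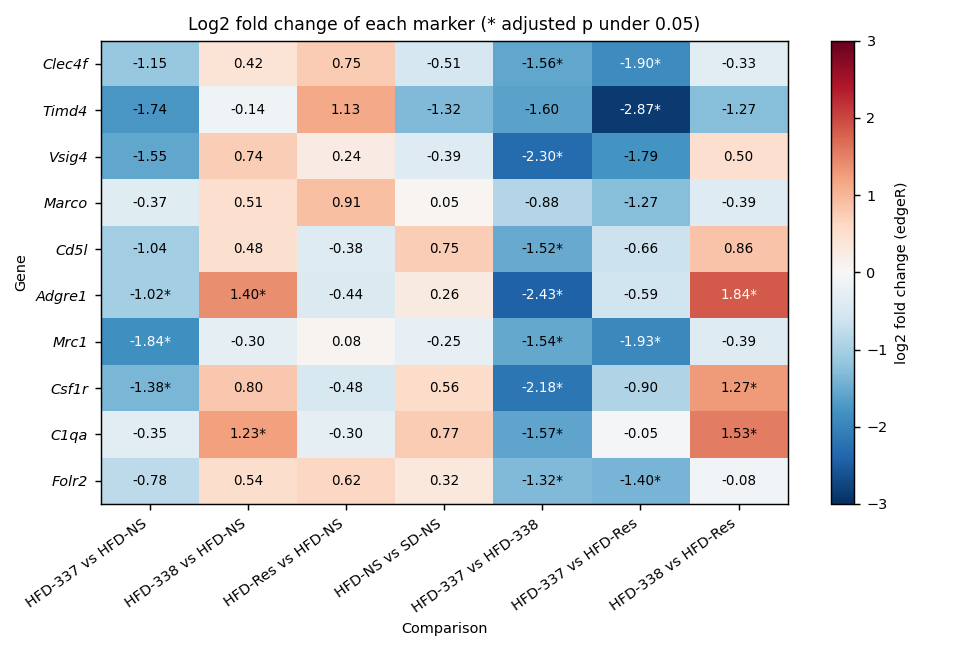
Log2 fold changes of the 10 markers from edgeR in 7 comparisons, first-named group over second, coloured from -3 (blue) to 3 (red), with an asterisk where the adjusted p over all genes is under 0.05. The columns that hold HFD-337 are negative for all 10 genes, though C1qa is close to 0 against HFD-Res (-0.05). HFD-338 against HFD-NS is called for Adgre1 (1.40) and C1qa (1.23) only.

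Genes that span long stretches of the genome were called lower more often in HFD-337 against HFD-NS. Of the 1583 tested genes over 100 kb, 42.4% were called lower and 8.46% higher, whereas of the 3545 genes under 10 kb, 9.87% were called lower and 40% higher. Adgre1 (125 kb) and Mrc1 (103 kb) are in the first class and C1qa (2.93 kb) in the second. The other 7 markers span 11.6 to 46.2 kb, a class of 10 to 100 kb in which 24.6% of genes were called lower. In HFD-337 against HFD-338, 48.7% of the genes over 100 kb and 16.4% of those under 10 kb were called lower, and over 100 kb 41.9% were called lower against HFD-Res and 45% against SD-NS. The part of gene span in the marker values was not tested.

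In HFD-338 against HFD-NS, Adgre1 and C1qa rose and no marker fell, a share near the background, since 18.9% of all genes were called higher and 36.8% in either direction. Adgre1 was at 29.4, 45.3 and 19.0 CPM in HFD-338 and at 9.46, 13.7 and 12.3 CPM in HFD-NS, without overlap. Its log2 fold change was 1.40 (SE 0.28, adjusted p = 0.00141), and the call held under all 12 alternatives, including without replicate 18 (log2 fold change 1.04, adjusted p = 0.00342). C1qa was at 51.3, 64.1 and 31.8 CPM in HFD-338 and at 14.9, 26.9 and 21.2 CPM in HFD-NS, also without overlap. Its log2 fold change was 1.23 (SE 0.336, adjusted p = 0.0139), and over the alternatives the adjusted p ran from 0.00059 to 0.06. Leaving out HFD-338 replicate 18 (adjusted p = 0.06) or HFD-NS replicate 12 ended the call. Csf1r was the third member without overlap, where 25.4% of all genes stood higher without overlap. It was at 44.4, 55.4 and 30.1 CPM in HFD-338 and at 18.7, 29.6 and 26.6 CPM in HFD-NS, with a log2 fold change of 0.80 (SE 0.324 and adjusted p = 0.0752, and 0.0321 by DESeq2).

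The remaining 7 markers overlapped with HFD-NS, and in Clec4f, Timd4, Marco, Cd5l and Folr2 the HFD-338 values reached beyond the HFD-NS values on both sides. Clec4f was at 40.7, 93.8 and 19.5 CPM in HFD-338, and Timd4 at 1.03, 4.08 and 0.393 CPM. In both genes the HFD-NS values given above lay between replicates 18 and 19. Marco was at 1.48, 15.3 and 1.44 CPM in HFD-338, Vsig4 at 18.1, 42.9 and 7.59 CPM, and Folr2 at 3.88, 10.5 and 1.83 CPM. Cd5l followed the same order with 77.0, 136 and 30.9 CPM. Mrc1 was the exception, with 45.1, 41.8 and 28.1 CPM in HFD-338, where replicate 17 was highest, and a log2 fold change of -0.30 against HFD-NS (SE 0.196, adjusted p = 0.246). Replicate 18 was the highest library of its group for 9 of the 10 genes and replicate 19 the lowest for 10 of 10. The fold between the highest and lowest library of a group had a median over the 10 genes of 4.61 in HFD-338, against 2.28 in HFD-337, 1.495 in HFD-Res, 1.70 in HFD-NS and 1.90 in SD-NS.

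Without replicate 18 the direction of the set in HFD-338 changed. The median log2 fold change of the 10 genes against HFD-NS was 0.53 with all libraries, where all genes had a median of 0.00093, and -0.23 without it. Marco had a log2 fold change of 0.51 (adjusted p = 0.653) with all libraries and was called lower without replicate 18 (-1.52, adjusted p = 0.0412). Without it 1 member was higher and 1 lower, where 14.5% of all genes were called higher and 12.6% lower. Timd4 was at -0.14 with all libraries and at -1.45 without replicate 18 (adjusted p = 0.19), and Clec4f at 0.42 and -0.35 (adjusted p = 0.563). Adgre1, C1qa and Csf1r stayed positive, at 1.04, 0.99 and 0.58.

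**Figure D3:**
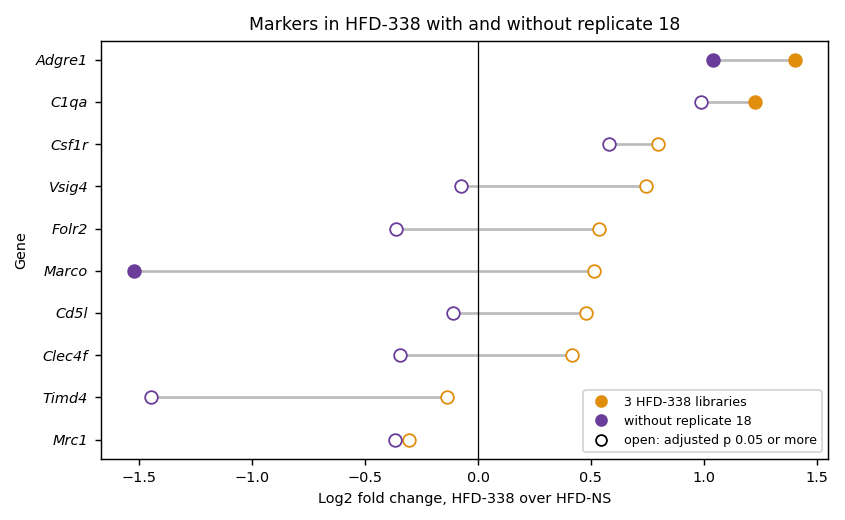
Log2 fold change of each marker in HFD-338 over HFD-NS from edgeR, with all 3 HFD-338 libraries (orange) and without replicate 18 (purple), filled where the adjusted p is under 0.05. Adgre1, C1qa and Csf1r stay right of 0 in both, whereas 6 markers other than Mrc1 lie left of 0 without replicate 18.

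Set directly against each other, HFD-337 was lower than HFD-338 for 8 of the 10 markers, where 29.6% of all genes were called lower and 58.4% in either direction. The median log2 fold change was -1.57, against -0.00032 over all genes, and Timd4 and Marco were the members not called. The calls that held under all 12 alternatives were those of Adgre1 (log2 fold change -2.43 with SE 0.324, adjusted p = 2.53e-05), Csf1r (-2.18, SE 0.373, adjusted p = 0.000377), C1qa (-1.57, SE 0.357, adjusted p = 0.00265) and Mrc1 (-1.54, SE 0.223, adjusted p = 4.2e-05). In these 4 genes alone the 2 groups did not overlap, against 31.2% of all genes. Clec4f (-1.56, adjusted p = 0.0276), Vsig4 (-2.30, adjusted p = 0.0173), Cd5l (-1.52, adjusted p = 0.0261) and Folr2 (-1.32, adjusted p = 0.0307) overlapped, and lost their calls without HFD-338 replicate 18, with adjusted p of 0.127, 0.0681, 0.121 and 0.355. That left 4 lower, where 26.4% of all genes were called lower. Leaving out HFD-337 replicate 26 took the same 4 calls away, and so did a fit of only these 2 groups, while leaving out HFD-337 replicate 27 took away all of them but Cd5l. The chemistry, dose and timing behind these 2 groups are not given in the labels used here, so the values stand side by side without a comparison of agents.

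In HFD-Res against HFD-NS, no marker was called by edgeR, at an unadjusted p under 0.05 there were 0 as well, and DESeq2 and limma-voom called 0, where 13% of all genes were called in either direction, 6.22% higher and 6.74% lower. Clec4f was at 82.2, 52.4 and 59.9 CPM in HFD-Res and at 48.9, 38.1 and 28.7 CPM in HFD-NS, and Marco at 8.78, 9.43 and 6.10 CPM in HFD-Res and at 5.14, 6.08 and 1.69 CPM in HFD-NS. Folr2 was at 7.49, 5.06 and 4.79 CPM in HFD-Res and at 4.44, 3.601 and 3.16 CPM in HFD-NS. The groups did not overlap in these 3 genes, higher in HFD-Res, against 15.3% of all genes, but the log2 fold changes of 0.75 (SE 0.493), 0.91 (SE 0.819) and 0.62 (SE 0.453) had adjusted p of 0.389, 0.549 and 0.435. Adgre1 was at 9.85, 9.43 and 7.26 CPM in HFD-Res, with a log2 fold change against HFD-NS of -0.44 (SE 0.331, adjusted p = 0.456). Csf1r was at 22.5, 18.6 and 13.4 CPM and C1qa at 18.8, 15.2 and 17.0 CPM in HFD-Res, and both overlapped with HFD-NS. Mrc1 was at 53.1, 57.5 and 41.1 CPM, Vsig4 at 17.6, 17.0 and 14.2 CPM, Timd4 at 6.42, 4.14 and 3.05 CPM and Cd5l at 52.0, 46.9 and 36.0 CPM in HFD-Res. The largest fold between 2 libraries of HFD-Res was 2.11, for Timd4.

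No marker passed the test between the high-fat diet group HFD-NS and SD-NS. In HFD-NS against SD-NS edgeR called 0 of 10, 0 had an unadjusted p under 0.05 and DESeq2 called 0, while limma-voom called Timd4 lower (log2 fold change -1.78, adjusted p = 0.0441). Of all genes 28.1% were called in this comparison. Timd4 was at 3.62, 2.11 and 0.422 CPM in HFD-NS and at 5.99, 2.14 and 7.31 CPM in SD-NS, which overlap, with a log2 fold change of -1.32 (SE 0.702 and adjusted p = 0.184). Clec4f was at 48.9, 38.1 and 28.7 CPM in HFD-NS and at 58.3, 40.1 and 66.7 CPM in SD-NS (log2 fold change -0.51 with SE 0.497). C1qa was at 14.9, 26.9 and 21.2 CPM in HFD-NS and at 12.8, 8.55 and 16.3 CPM in SD-NS (log2 fold change 0.77 with SE 0.388, adjusted p = 0.168). For all 10 genes the 2 groups overlapped, whereas of all genes 20.6% stood higher and 24.2% lower without overlap. Of the 10 log2 fold changes 6 were positive, with Cd5l (0.75, SE 0.511) next to C1qa, and SD-NS replicate 7 was the lowest library of its group for all 10 genes.

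Comparisons of HFD-337 and HFD-338 with SD-NS and with HFD-Res give the distance from those levels. They share libraries with those above, so they are no separate evidence. Against SD-NS, 4 markers were lower in HFD-337 (27.1% of all genes were called lower and 55.2% in either direction), namely Mrc1 (log2 fold change -2.09, adjusted p = 1.7e-06), Timd4 (-3.06, adjusted p = 0.0119), Clec4f (-1.66, adjusted p = 0.0244) and Vsig4 (-1.95, adjusted p = 0.047). The calls of Timd4, Clec4f and Vsig4 were lost without HFD-337 replicate 26, which left Mrc1. Of 12 alternatives, Timd4 kept its call under 11, Clec4f under 8, Vsig4 under 7 and Mrc1 under all 12. These 4 genes did not overlap, all lower in HFD-337, against 28.7% of all genes, and 0 members stood higher without overlap, against 30.2%. C1qa was the one member with a positive value (0.42, adjusted p = 0.411), and overlapped. Against HFD-Res, 4 were lower in HFD-337 (23.3% of all genes were called lower, 24.3% higher and 47.6% in either direction), with Mrc1 (-1.93, adjusted p = 6.72e-06), Clec4f (-1.90, adjusted p = 0.0145), Timd4 (-2.87, adjusted p = 0.0214) and Folr2 (-1.40, adjusted p = 0.0338), and without replicate 26 again Mrc1 alone was called. In contrast C1qa stood at 17.0 ± 7.89 CPM in HFD-337 and 17.0 ± 1.83 CPM in HFD-Res. Of the calls against HFD-Res, that of Clec4f held under 11 of 12 alternatives and those of Timd4 and Folr2 under 7 each. The share of all genes called without HFD-337 replicate 26 was not counted.

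In HFD-338 against SD-NS, Adgre1 (log2 fold change 1.67, adjusted p = 0.000495), Csf1r (1.36, adjusted p = 0.00732) and C1qa (1.99, adjusted p = 0.00102) were higher, where 23% of all genes were called higher, and Mrc1 was lower (-0.55, adjusted p = 0.0334), where 25.7% were called lower and 48.7% in either direction. The 3 higher genes did not overlap with SD-NS, as did 27.6% of all genes. The Mrc1 call was lost under 7 of 12 alternatives. Against HFD-Res the same 3 genes were higher in HFD-338 (22.2% of all genes were called higher, 20.9% lower and 43.1% in either direction), with Adgre1 at 1.84 (adjusted p = 0.000329), C1qa at 1.53 (adjusted p = 0.00513) and Csf1r at 1.27 (adjusted p = 0.0118). Without replicate 18, where 18.4% of all genes were called higher and 16.3% lower, these 3 held, and Marco (-2.43, adjusted p = 0.00195), Timd4 (-2.58, adjusted p = 0.0154) and Folr2 (-0.98, adjusted p = 0.0364) were called lower than in HFD-Res. Without it Marco (-1.43, adjusted p = 0.049) and Timd4 (-2.73, adjusted p = 0.00866) were also called lower than in SD-NS, while Mrc1 was not (-0.57, adjusted p = 0.0622) and the same 3 genes stayed higher, where 21.4% of all genes were called higher and 18.9% lower. In HFD-Res against SD-NS edgeR called 0 markers, with 0 at an unadjusted p under 0.05 and 0 by DESeq2, against 26.9% of all genes.

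The balance between a Kupffer-restricted and a general macrophage gene can be read within a library, where library size cancels. This ratio was chosen after the values were seen and is given without a test. Reads of Clec4f per read of Adgre1 were 3.10, 3.09 and 2.63 in HFD-337, 1.38, 2.07 and 1.03 in HFD-338, then 8.35, 5.56 and 8.24 with resmetirom (HFD-Res), 5.17, 2.79 and 2.33 in HFD-NS and 5.69, 5.02 and 5.78 in SD-NS. For this ratio the HFD-338 libraries were the lowest of all 15, and the HFD-337 ratios lay within the HFD-NS range. Reads of Timd4 per read of Adgre1, which rest on few Timd4 reads, did not give the same order. They ran from 0.0207 to 0.0902 in HFD-338, and HFD-NS replicate 16 (0.0342) lay within that range. Reads of Clec4f per read of C1qa ran from 0.992 to 1.21 in HFD-337 and from 0.613 to 1.46 in HFD-338, against 3.46 to 4.36 in HFD-Res, 1.35 to 3.27 in HFD-NS and 4.09 to 4.68 in SD-NS. Of the summed TPM of the 10 genes, C1qa made up 30% ± 2.53 in HFD-337 and 31% ± 6.73 in HFD-338, against 15.3% ± 1.91 in HFD-Res, 19.5% ± 3.65 in HFD-NS and 13% ± 0.693 in SD-NS. A ratio shows unequal change of the 2 genes and not which of them changed.

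**Figure D4:**
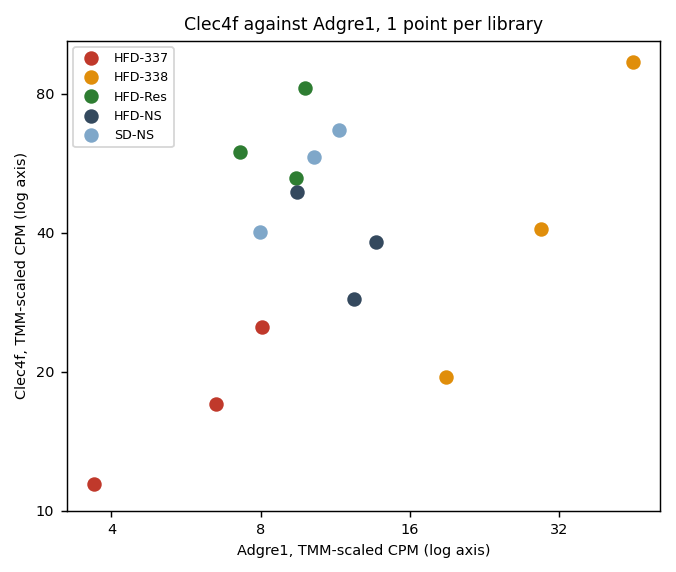
Clec4f against Adgre1 in TMM-scaled CPM on log axes, with 1 point per library coloured by group. The 3 HFD-338 points lie farthest right, at 19.0 to 45.3 CPM of Adgre1, the HFD-337 points at the lower left, and the HFD-Res and SD-NS points together at 40.1 to 82.2 CPM of Clec4f.

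Of 16 other genes of Kupffer cells, all tested, 10 were lower and 0 higher in HFD-337 against HFD-NS, with a median log2 fold change of -0.85. Of all genes, 22.8% were called lower and 24.4% higher in this comparison. Cd38, an ectoenzyme that consumes NAD, was at 4.60 ± 0.27 CPM in HFD-337 and at 18.6 ± 2.13 CPM in HFD-NS (log2 fold change -2.01, adjusted p = 1.24e-05). The haem-degrading enzyme Hmox1 was at 6.92 ± 2.30 CPM in HFD-337 and at 17.1 ± 1.97 CPM in HFD-NS (log2 fold change -1.36, adjusted p = 0.00128). In HFD-338 against HFD-NS 5 rose and 1 fell (3 and 3 without replicate 18), among them the other C1q chain gene C1qc (log2 fold change 1.27, adjusted p = 0.00328) and the Fc receptor gene Fcgr1 (1.55, adjusted p = 0.0011). Without replicate 18 C1qc was at 1.05 (adjusted p = 0.015) and Fcgr1 at 1.56 (adjusted p = 0.00392). In HFD-Res against HFD-NS 0 of 16 were called, and in HFD-NS against SD-NS 3 rose and 2 fell. Of all genes, 18.9% rose and 17.9% fell in HFD-338 against HFD-NS (14.5% and 12.6% without replicate 18). In HFD-Res against HFD-NS 13% were called in either direction, and in HFD-NS against SD-NS 12% rose and 16.1% fell.

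The haemoglobin scavenger receptor gene Cd163 also belongs to these genes. It was at 0.788, 1.27 and 0.609 CPM in HFD-337, 0.342, 1.11 and 0.131 CPM in HFD-338, 17.8, 9.89 and 11.9 CPM in HFD-Res, 7.82, 5.59 and 1.16 CPM in HFD-NS, and 23.6, 14.6 and 19.7 CPM for SD-NS. Both numbered groups stood below every HFD-Res and SD-NS library, and HFD-338 also below every HFD-NS library. The log2 fold change was -3.13 in HFD-338 against HFD-NS (adjusted p = 0.00482, and -4.19 with 0.00654 without replicate 18) and -2.31 in HFD-337 against HFD-NS (adjusted p = 0.016), and -2.01 in HFD-NS against SD-NS (adjusted p = 0.00624). These comparisons share the HFD-NS libraries.

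Of 12 transcription factors of Kupffer cell identity, all tested, 2 were higher and 1 lower in HFD-337 against HFD-NS. In HFD-338 against HFD-NS 3 were higher and 1 lower (1 and 1 without replicate 18). These counts lie near or below the background. Of all genes, 24.4% were called higher and 22.8% lower in HFD-337. In HFD-338 18.9% were called higher and 17.9% lower (14.5% and 12.6% without replicate 18). Nr1h3, the liver X receptor alpha gene, which is also on in hepatocytes, was higher in HFD-337 (log2 fold change 0.64, adjusted p = 8.36e-05) and lower in HFD-338 (-0.37, adjusted p = 0.0118, and -0.42 with 0.0192 without replicate 18). Irf8, a factor of the monocyte lineage, was higher in HFD-338 against HFD-NS (1.20, adjusted p = 0.00276, and 1.03 with 0.0198 without replicate 18). Id3, a Kupffer cell identity factor in mice, was higher in HFD-NS against SD-NS (1.52, adjusted p = 0.000255), while the markers themselves were not called there.

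The niche list holds both ligands of the Csf1r product, Csf1 and Il34. Csf1 was at 22.6, 11.8 and 9.74 CPM in HFD-337, 16.6, 16.3 and 12.8 CPM in HFD-338, 16.3, 14.7 and 17.3 CPM in HFD-Res, 8.99, 11.7 and 9.80 CPM in HFD-NS, and 6.66, 6.80 and 5.91 CPM for SD-NS. HFD-337, HFD-338, HFD-Res and HFD-NS each lay wholly above SD-NS, so this was shared by all groups on the high-fat diet. Against SD-NS the log2 fold changes were 1.16 in HFD-337 (adjusted p = 0.000885), 1.23 in HFD-338 (adjusted p = 0.00055) and 1.31 in HFD-Res (adjusted p = 0.000803). Csf1 was not called in HFD-NS against SD-NS. Against HFD-NS Csf1 was called in HFD-338 (0.59, adjusted p = 0.0403), but not without replicate 18 (0.54, adjusted p = 0.107), and was at 0.52 in HFD-337 (adjusted p = 0.0677) and 0.67 in HFD-Res (adjusted p = 0.0587). Il34 was called in none of the 10 comparisons and averaged 0.979 ± 0.509 CPM in HFD-337, 1.45 ± 0.474 CPM in HFD-338, 1.97 ± 0.901 CPM in HFD-Res, 1.53 ± 0.289 CPM in HFD-NS, and 1.04 ± 0.628 CPM for SD-NS. Of 10 tested niche genes, 5 were lower and 1 higher in HFD-337 against HFD-NS, where 22.8% of all genes were lower and 24.4% higher. Dll4, the Notch ligand of endothelium, was among the lower ones (log2 fold change -1.58, adjusted p = 0.0186), and Bmp6, an iron-regulating ligand made by sinusoidal endothelium, was the higher one (1.06, adjusted p = 0.00073).

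General macrophage genes were higher in HFD-338 than in HFD-NS. Of all genes, 18.9% were called higher and 17.9% lower in this comparison (14.5% and 12.6% without replicate 18). Against HFD-NS 24.4% were called higher and 22.8% lower in HFD-337, and 6.22% higher and 6.74% lower in HFD-Res. Of 12 pan-macrophage genes all 12 were higher in HFD-338 against HFD-NS (9 without replicate 18), with a median log2 fold change of 1.297, and 1 was lower in HFD-337 against HFD-NS. Their sums were 165 to 358 CPM in HFD-337, 562 to 982 CPM in HFD-338, 155 to 201 CPM in HFD-Res and 223 to 378 CPM in HFD-NS. The lysosomal glycoprotein gene Cd68 was at 18.5 ± 4.94 CPM in HFD-338 and 8.45 ± 2.37 CPM in HFD-337, against 8.53 ± 2.46 CPM in HFD-NS. Of 10 monocyte markers, 5 were higher and 1 lower in HFD-338 against HFD-NS (3 and 1 without replicate 18), with the fractalkine receptor gene Cx3cr1 at a log2 fold change of 2.10 (adjusted p = 0.000119, and 2.05 with 0.000689 without replicate 18). In HFD-337 against HFD-NS 0 of the 10 were higher and 1 lower. Of 12 lipid-associated macrophage markers, 8 were higher and 1 lower in HFD-338 against HFD-NS (6 and 1 without replicate 18), 3 higher and 2 lower in HFD-337, and 0 higher and 3 lower in HFD-Res. Gpnmb, a glycoprotein gene of these cells, rose in HFD-338 (2.49, adjusted p = 7.04e-06, and 2.48 with 4.36e-05 without replicate 18) and fell in HFD-Res (-2.66, adjusted p = 0.00199). Spp1, which is also on the list of bile duct markers, was among those higher in HFD-338 (3.80, adjusted p = 0.00011, and 3.88 with 0.000433 without replicate 18). Monocyte markers summed to 947 to 1096 CPM in HFD-338 against 1217 to 1501 CPM in HFD-NS. Lipid-associated markers summed to 12853 to 14550 CPM in HFD-338 against 17750 to 19156 CPM in HFD-NS. Both sums were lower in HFD-338 although more members were called higher than lower. Each sum rests mostly on 1 abundant gene that was called lower, also without replicate 18. For monocyte markers it was Fn1, at 916 CPM in HFD-338 and 1283 CPM in HFD-NS. For lipid-associated markers it was Apoe, at 12306 CPM in HFD-338 and 18129 CPM in HFD-NS. The sums therefore do not describe the other members of these lists. No gene of the 3 lists was at 0 in a whole group. These lists move with Adgre1, C1qa and Csf1r, which the same cells express, and their part in the rise of the 3 markers in HFD-338 was not tested.

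Other cell types of the sinusoid moved with the markers in HFD-337. Of all genes, 22.8% were called lower and 24.4% higher in HFD-337 against HFD-NS. In HFD-338 against HFD-NS 17.9% were lower and 18.9% higher (12.6% and 14.5% without replicate 18). In HFD-Res against HFD-NS 6.74% were lower and 6.22% higher. Of 12 stellate cell markers, 8 were lower and 0 higher in HFD-337 against HFD-NS, with sums of 201 to 319 CPM against 491 to 544 CPM. In HFD-338 against HFD-NS 2 were higher and 2 lower, also without replicate 18, with sums of 617 to 1028 CPM in HFD-338. Sinusoidal endothelial markers were lower for 10 of 14 in HFD-338 against HFD-NS (8 without replicate 18) and summed to 172 to 293 CPM in HFD-338. In HFD-Res they summed to 381 to 448 CPM, with 0 lower and 1 higher. Of 7 bile duct markers the 5 tested were all higher in HFD-338 against HFD-NS, also without replicate 18, with sums of 582 to 734 CPM against 47.5 to 63.1 CPM. These sums rest mostly on Spp1, at a mean of 586 CPM in HFD-338 and 42.2 CPM in HFD-NS. They therefore do not describe the other bile duct markers. Spp1 is also counted among the lipid-associated macrophage markers above. No stellate cell or sinusoidal endothelial marker was at 0 in a whole group.

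**Figure D5:**
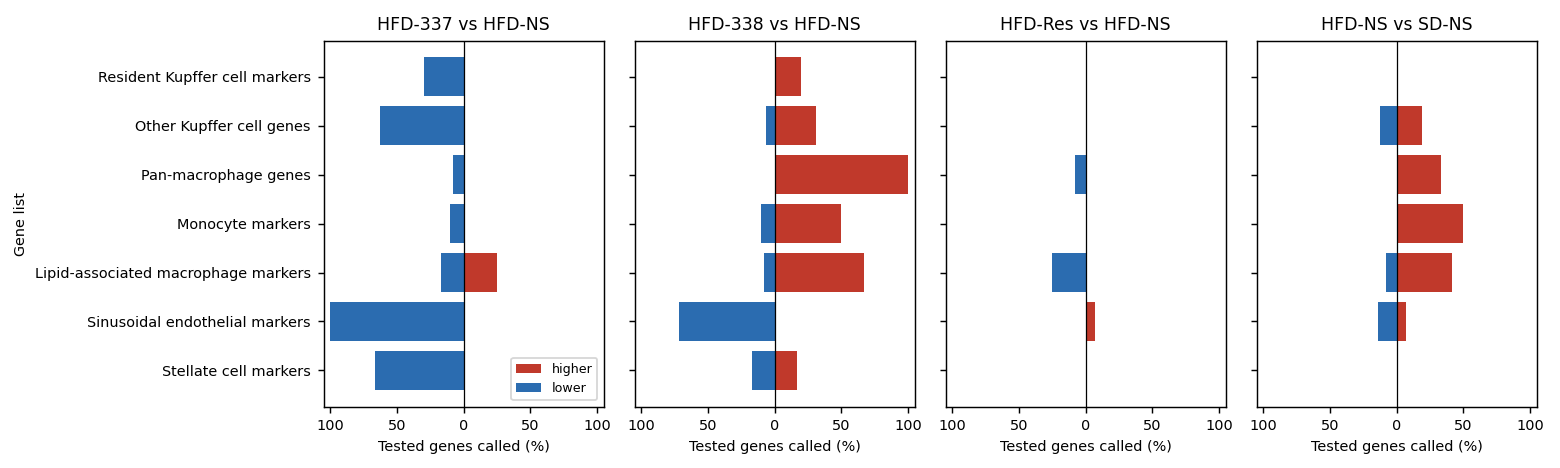
Percent of the tested genes of each cell type list called higher (red, right) or lower (blue, left) by edgeR at an adjusted p under 0.05, in 4 comparisons. Of the 10 resident Kupffer cell markers, 3 are lower in HFD-337 and 2 higher in HFD-338 against HFD-NS. All 14 tested sinusoidal endothelial markers are lower in HFD-337 and all 12 pan-macrophage genes are higher in HFD-338. Of all genes, 22.8% are lower in HFD-337 and 18.9% higher in HFD-338.

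Genes whose levels ran most like the markers over the 15 libraries were sought among 12854 genes that are not members. The measure was Pearson's r between a gene's log2 CPM and the mean standardized log2 CPM of the 10 genes, given as a description, since the libraries share groups and depth. The 5 closest were Fpr1, a formyl peptide receptor gene (r = 0.931), Myo7a, a myosin gene (0.929), Irak3, an inhibitor of Toll-like receptor signalling (0.918), Tek, the angiopoietin receptor gene (0.91), and Sdc3, a cell surface proteoglycan gene (0.899). Fpr1 averaged 0.434 CPM in HFD-337, 4.52 CPM in HFD-338, 2.83 CPM in HFD-Res, 2.38 CPM in HFD-NS, and 2.06 CPM for SD-NS. Tek averaged 5.24 CPM in HFD-337, 20.1 CPM in HFD-338, 14.5 CPM in HFD-Res, 11.04 CPM in HFD-NS, and 10.3 CPM for SD-NS. All 5 had their lowest group mean in HFD-337 and their highest in HFD-338, with Myo7a varying least, from 11.8 CPM in HFD-337 to 16.6 CPM in HFD-338. As they were picked for running like the markers, this order is no separate finding. Sdc3 is also on the list of other Kupffer cell genes.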

How the data were processed

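RNA sequencing counts of 15 liver libraries, 3 in each of 5 groups, were analysed. Per the labels' protocols, RNA was extracted with TRIzol and polyadenylated RNA was selected. Per the submitters' processing notes, the tools were featureCounts 2.0.1, STAR 2.7.10b, Trim Galore 0.6.10 and Bowtie 1.3.1, and the build was mm39. The deposited values are raw counts of reads in exons summed per gene, per the file headers without regard to strand and with a read counted for every gene it overlaps, beside the summed exon length in bases. A deposited TPM table was not used here, because its column names are not tied to the labels throughout.

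Groups were taken from the labels. The 13189 genes kept by filterByExpr were scaled by TMM and fitted in 1 model of all libraries with edgeR 4.0.16 (robust quasi-likelihood test) in R 4.3.3, with 10 pairwise comparisons and an F test over the 5 groups. P-values were adjusted by the Benjamini-Hochberg method across the whole table of tested genes, and a call is an adjusted p under 0.05. SEs are the log2 fold change divided by the square root of F. TPM were recomputed from counts and exon lengths. The procedure was tested on simulated data with the same spread for all genes. It does not show how the test behaves for markers that vary more widely. As alternatives, DESeq2 1.42.0 and weighted limma-voom (limma 3.58.1) replaced edgeR, RLE replaced TMM, the filter was dropped, only the groups compared were fitted, log2 of TPM plus 1 was tested with limma, and each library was left out in turn. Counts and values for the other gene lists, and shares of all genes called, without HFD-338 replicate 18 were added after the data had been seen. With 3 against 3, an exact permutation test of a single value cannot go below p = 0.1.

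The members and the gene lists were chosen with earlier results of these data known. All 10 members, Csf1, Il34 and Stk25 are named whatever their result. Of each other list, up to 2 called genes per direction and comparison are named, by size of change, with at least 1 CPM and no overlap between the groups, besides the 5 genes most like the members. Cd68, Cd163 in HFD-337, Gpnmb in HFD-338, S100a8, S100a9 and Ly6g were named outside this rule after their values had been seen.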

Additional observations from a re-analysis of the deposited data

How the results depend on the processing

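Of 1198 values of single markers under the alternatives, 1111 kept their direction and side of the threshold or changed sign while not called (42 sign changes), 50 lost and 35 gained a call, and 2 reversed. The reversed values were those of Marco without HFD-338 replicate 18, at a log2 fold change of -1.52 against HFD-NS (adjusted p = 0.0412) and -1.43 against SD-NS (adjusted p = 0.049), and the cause was not tested. Over single libraries left out, Marco ran from -1.43 to 1.06 in the second comparison. Leaving out 1 library at a time gave 2 to 3 members called in HFD-337 against HFD-NS, 1 to 4 in HFD-338 against HFD-NS, 4 to 8 in HFD-337 against HFD-338, 1 to 4 in HFD-337 against HFD-Res, 2 to 6 in HFD-338 against HFD-Res, 1 to 5 in HFD-337 against SD-NS, 3 to 5 in HFD-338 against SD-NS and 4 to 9 in the test over 5 groups. It gave 0 to 0 in HFD-Res against HFD-NS, HFD-Res against SD-NS and HFD-NS against SD-NS. Shares of all genes called were not counted in these fits, apart from those given above without HFD-338 replicate 18. These ranges therefore have no background beside them. Other counts that moved by over 1.5 times were 1 by limma-voom in HFD-NS against SD-NS, 4 of 9 tested members in HFD-337 against HFD-338 when only these groups were fitted, 2 in HFD-Res against SD-NS in such a fit (Marco 1.02, Folr2 0.99), and 9 by DESeq2 over 5 groups. Of all genes, limma-voom called 2493 lower in HFD-NS against SD-NS. The fits of only the groups compared called 3535 lower in HFD-337 against HFD-338 and 1835 higher in HFD-Res against SD-NS. How many genes those fits tested was not counted. On recomputed TPM the median log2 fold change of all genes shifted to 0.115 in HFD-338 against HFD-NS, -0.229 in HFD-337 against HFD-338, 0.122 in HFD-338 against HFD-Res and 0.177 in HFD-338 against SD-NS, and the calls of HFD-337 against HFD-338 were then 2194 higher and 5314 lower, against 3794 and 3907 with TMM. Markers at a few counts, above all Timd4, are limited by depth. No paired analysis was possible because the groups share no replicate numbers.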
